A study of Mus musculus with 112 samples.

Results

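Txnip, the arrestin-domain genes Arrdc3 and Arrdc4, and the thioredoxin genes Txn1, Txn2, Txnrd1 and Txnrd2 were followed across 14 groups of male mice. These 7 genes were taken by name from the 19938 genes with a probe set of a single gene symbol, and each of the 7 had 1 probe set on the array. The group was chosen by the difference of Txnip between calorie restricted (CR) and control mice on these same arrays. Its diet differences are therefore given as a description with no test, while the diet differences of the other 6 genes and the strain differences of all 7 were tested.

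Gene expression was measured in cerebral cortex from 7 strains, each with 8 control and 8 CR mice, or 112 arrays in all. The inbred strains were C57BL6/J, DBA/2J, CBA/J, C3H/HeJ, 129S1/SvImJ and Balbc/J. B6C3F1/J is a hybrid and comes from a cross of C57BL6/J with C3H/HeJ. Male mice arrived at 6 weeks of age, lived singly and received 84 kcal per week of a purified diet, and from 8 weeks onward either stayed on the control diet or were restricted. Cortex was taken at 22 weeks after an overnight fast, so that every group, controls included, had been without food for the night. The food allotment was not the same in all strains, since Balbc/J mice of both diets received more, and under CR that of C57BL6/J and 129S1/SvImJ was lowered further partway through. All values below are log2 signals, in which a difference of 1 is a doubling, and signals of different genes are not compared with each other.

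Txnip is an alpha-arrestin that binds reduced thioredoxin and restrains glucose uptake, and its transcription is driven by glucose-derived metabolites through the MondoA and ChREBP proteins with their partner Mlx. Arrdc3 and Arrdc4 are alpha-arrestins of the same family that link membrane receptors and transporters to ubiquitin ligases, and Arrdc4 is also a target of MondoA. Thioredoxin reduces disulfides in other proteins and is itself reduced by thioredoxin reductase with NADPH, with Txn1 and Txnrd1 in the cytosol and Txn2 and Txnrd2 in mitochondria.

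The promoters of Txnip and Arrdc4 are shown because both genes are known targets of the same glucose-responsive factors, and their diet differences are given side by side below. Each sequence is the 250 bases before the gene's start in RefSeq's annotation of build GRCm38.p6, on the strand of the gene, and capitals mark CACGTG or CACGAG on either strand. The Txnip window is chr3:96557707-96557956 on the plus strand and the Arrdc4 window is chr7:68749239-68749488 on the minus strand.
Txnip: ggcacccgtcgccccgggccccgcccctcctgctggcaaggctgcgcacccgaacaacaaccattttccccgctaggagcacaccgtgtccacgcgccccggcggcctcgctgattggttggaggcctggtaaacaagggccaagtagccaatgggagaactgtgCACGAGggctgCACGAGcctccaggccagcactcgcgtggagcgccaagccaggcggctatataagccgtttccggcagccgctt
Arrdc4: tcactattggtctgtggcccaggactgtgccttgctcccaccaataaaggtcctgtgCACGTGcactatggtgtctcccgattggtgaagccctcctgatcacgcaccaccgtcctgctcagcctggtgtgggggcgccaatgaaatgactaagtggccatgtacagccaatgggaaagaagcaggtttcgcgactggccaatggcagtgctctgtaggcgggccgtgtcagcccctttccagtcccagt
In the Txnip window CACGAG occurred 2 times, starting 85 and 74 bases before the gene's start, and the pair formed the only match among the 7 genes to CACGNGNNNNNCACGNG, a spaced arrangement of the kind bound by ChREBP and MondoA. That arrangement was present in 16 of 32851 RefSeq promoter windows of 300 bases (0.0487%). Only this exact pattern was searched, on either strand, so pairs with another orientation, spacing or letters would not be found in any gene. At least 1 CACGAG was present in 6.47% of them, and 2 or more in 0.359%. The Arrdc4 window held 1 CACGTG, a motif found in 7.15% of promoters, starting 193 bases before the start. It also held 6 matches to CCAAT or its reverse complement, against 2 in the Txnip window. At least 1 such match was present in 37.4% of promoters, and 2 or more in 11.7%. Such matches are a description of the letters and say nothing of binding in these mice.

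Of 7 cortical excitatory neuron markers, Slc17a7, a vesicular glutamate transporter, had a mean of 12.1, Camk2a 13.0 and Tbr1 9.86, with Neurod6 lowest at 8.69. Since signals of different genes are not compared, these levels alone do not test the tissue label. Of the arrays, 4 stood apart by signal of 10 cerebellar markers, which were higher than in the other mice of the same group by 4.27 in replicate 6 of the C57BL6/J controls, by 4.20 in replicate 8 of the B6C3F1/J controls, by 1.53 in replicate 8 of the DBA/2J controls and by 1.38 in replicate 6 of the CBA/J mice under CR. On the first 2 of them the excitatory neuron markers differed by -2.05 and -1.79, and the microglial markers by -1.02 and -0.73. Both arrays were kept in the main fit. In bulk cortex, fewer cells of a type and less RNA per cell cannot be told apart. Of 52 measured markers of 8 tissues and cell types, 2 were called between the diets across strains, where 2.34% of all genes were. They were Gja1, an astrocyte gap junction gene (0.096 ± 0.016 (SE) higher in CR, limma adjusted p = 9.74e-05), and Tek, an endothelial receptor (0.086 ± 0.025 higher, adjusted p = 0.0443). The median over the list was 0.0026 for 6 astrocyte markers, with Gfap at -0.084 and Slc1a3 at -0.036, and -0.0023 for 8 endothelial markers, with Pecam1 at -0.050 and Flt1 at -0.056.

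Txnip signal was higher in CR mice than in control mice in 7 of 7 strains, by 0.19 on average, or 14.3%. The mean was 8.14 in 56 control arrays and 8.33 in 56 CR arrays. The strain differences ran from 0.040 in Balbc/J to 0.38 in CBA/J, and whether they vary with strain was not tested for this gene. Across all genes 2.34% were called between the diets across strains, 1.17% higher and 1.17% lower, or 467 genes. Without the 2 arrays highest in cerebellar markers 870 genes were called, 349 higher and 521 lower, and without all 4 arrays 875, 322 higher and 553 lower. Because the gene was chosen for this difference, no test or interval is attached to it.

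**Figure D1:**
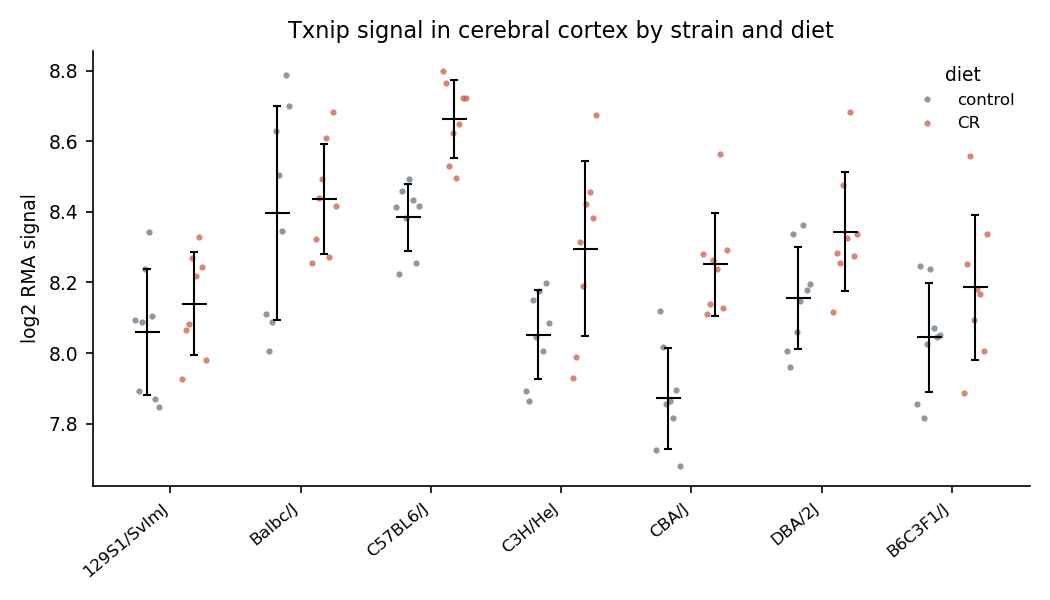
Txnip signal (log2) on each of the 112 arrays, by strain and diet. Points are single mice, horizontal bars are group means and vertical bars are SD (n = 8 mice per group). The CR points of C57BL6/J lie wholly above its control points, and those of Balbc/J and 129S1/SvImJ lie within the span of the controls.

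In C57BL6/J the lowest, median and highest control signals of Txnip were 8.22, 8.42 and 8.49, and those of CR mice were 8.50, 8.68 and 8.80. All 8 CR mice exceeded the highest control, and the difference was 0.28. In CBA/J the control signals were 7.68, 7.86 and 8.12 (lowest, median, highest) and the CR signals 8.11, 8.25 and 8.57. Here 7 of 8 CR mice lay above the highest control, and the difference of 0.38 was the largest of the 7 strains. The highest CR mouse of CBA/J was the one with raised cerebellar markers, and without the 4 arrays that stood apart the difference in CBA/J was 0.34 and the difference across strains 0.19.

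C3H/HeJ, DBA/2J and B6C3F1/J came between. The control signals of C3H/HeJ ran at 7.86, 8.07 and 8.20 (lowest, median, highest) against 7.93, 8.35 and 8.67 in CR mice, a difference of 0.24 with 5 of 8 CR mice above the highest control. The CR mice of this strain were also spread more widely (SD 0.25) than its controls (SD 0.13), so that some of them lay among the lowest controls. DBA/2J differed by 0.19, from 7.96, 8.16 and 8.36 to 8.12, 8.30 and 8.68, and B6C3F1/J by 0.14, from 7.82, 8.05 and 8.25 to 7.89, 8.18 and 8.56. In these strains 2 and 3 of 8 CR mice exceeded the highest control, respectively, and the groups overlapped.

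The smallest differences were found in 129S1/SvImJ and Balbc/J. In 129S1/SvImJ the control signals were 7.85, 8.09 and 8.34 and the CR signals 7.93, 8.15 and 8.33 (lowest, median, highest), a difference of 0.080. In Balbc/J they were 8.01, 8.42 and 8.79 and 8.25, 8.43 and 8.68, a difference of 0.040. No CR mouse of either strain exceeded the highest control, and 4 of 8 lay above the control median in each. Balbc/J controls had the widest spread of any group (SD 0.30), with 3 mice near 8.1 or below and the others between 8.34 and 8.79. When arrays were weighted by their fit, the Balbc/J difference changed sign, to -0.056.

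Of the paralogs, Arrdc3, which directs beta-adrenergic receptors to degradation, stood higher in CR mice in 6 of 7 strains, by 0.063 ± 0.028 on average (control mean 9.17), but the difference was not called (limma adjusted p = 0.257, 95% confidence interval 0.0079 to 0.12). Strain differences ran from -0.11 in B6C3F1/J to 0.21 in C57BL6/J, and the test that they vary with strain gave a limma adjusted p of 0.895. The adjusted p across strains ranged from 0.0703 without B6C3F1/J to 0.644 without C57BL6/J, and the mean difference fell to 0.039 without C57BL6/J.

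In C57BL6/J the control signals of Arrdc3 were 9.20, 9.28 and 9.37 and the CR signals 9.42, 9.46 and 9.66 (lowest, median, highest). As with Txnip, the 8 CR mice lay wholly above the 8 controls, a difference of 0.21 ± 0.073 that was not called among all genes (limma adjusted p = 0.271). In this strain 21 of 19938 genes (0.105%) had diet groups that did not overlap, and 6 (0.0301%) had every CR mouse above every control. Over all strains, 0.0738% of gene and strain pairs had diet groups that did not overlap, and among the 42 pairs of the 6 genes other than Txnip, Arrdc3 in C57BL6/J was the 1 that did not. The 6 genes of C57BL6/J with every CR mouse above every control included Txnip. That gene was chosen for its diet difference, so its place among them is no support. The others were Arrdc3, the clock gene Per2, the flavin monooxygenase Fmo2, the myelin gene Mbp and the glycolipid transfer gene Gltp. The last 4 were named after their values were seen. Without control replicate 6, which stood apart, 15 genes (0.0752%) had every CR mouse above every control.

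Oligodendrocyte markers were also higher in CR mice of this strain. The mean of 5 such markers was 10.4 ± 0.12 (SD, n = 8) in C57BL6/J controls and 10.6 ± 0.096 in C57BL6/J CR mice. Lowest and highest arrays were 10.1 and 10.5 in controls and 10.5 and 10.8 in CR mice. The lowest control was replicate 6, which stood apart, and the other controls ran from 10.40 to 10.53 (mean 10.48). Over all strains the marker mean was 10.3 in both diets. It was lower under CR in Balbc/J (10.37 in controls, 10.21 in CR mice) and DBA/2J (10.23 and 10.14), where Arrdc3 was higher by 0.0094 and 0.11. In the other strains the marker mean and Arrdc3 differed in the same direction. The oligodendrocyte marker mean was then used as a covariate, an alternative chosen after seeing the data. With it the Arrdc3 difference in C57BL6/J was 0.13 (limma adjusted p = 0.308) and that of Txnip was 0.25. With the astrocyte markers as a covariate the same differences were 0.25 and 0.34. Across strains the Txnip difference was 0.19 under either covariate and that of Arrdc3 was 0.061 and 0.058 with astrocyte and oligodendrocyte markers, respectively. These values are a description, and whether cell content has a part in either diet difference was not tested.

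In the other strains the diet groups of Arrdc3 overlapped. In 129S1/SvImJ, 4 of 8 CR mice exceeded the highest control (control 8.97, 9.12 and 9.23, CR 9.07, 9.23 and 9.49, difference 0.13). In B6C3F1/J none did, and the signal was lower in CR mice (control 8.94, 9.14 and 9.54, CR 8.85, 9.05 and 9.38). The highest B6C3F1/J control, replicate 8, was 1 of the 4 arrays that stood apart and exceeded the mean of the other controls by 0.40. Without those 4 arrays the difference in B6C3F1/J was -0.058 and the difference across strains 0.062.

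For Arrdc4 no diet difference passed the test. Its mean difference was 0.00087 ± 0.023, with a 95% confidence interval of -0.044 to 0.046 (adjusted p = 0.994), and it was positive in 3 of 7 strains, from -0.036 in C57BL6/J to 0.047 in C3H/HeJ. Its mean turned to -0.016 without the 4 arrays that stood apart, still within the interval. In C57BL6/J, where Txnip and Arrdc3 separated the diets, control signals of Arrdc4 were 7.09, 7.47 and 7.63 and CR signals 7.26, 7.42 and 7.59 (lowest, median, highest), and no CR mouse exceeded the highest control. In CBA/J they were 7.44, 7.53 and 7.57 and 7.21, 7.50 and 7.68, again overlapping.

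The thioredoxins and their reductases showed no diet difference that passed the test. The cytosolic thioredoxin Txn1 differed by 0.0015 ± 0.013 (95% confidence interval -0.024 to 0.027, adjusted p = 0.981) and the mitochondrial Txn2 by 0.012 ± 0.013 (-0.014 to 0.038, adjusted p = 0.778). Of the reductases, which hand electrons from NADPH to thioredoxin, the cytosolic Txnrd1 differed by 0.019 ± 0.018 (-0.016 to 0.054, adjusted p = 0.702) and the mitochondrial Txnrd2 by -0.0047 ± 0.016 (-0.036 to 0.027, adjusted p = 0.945). The bound farthest from 0 in these 4 intervals was 0.054, that of Txnrd1.

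Over the 6 tested genes, 0 were called across strains by limma (2.34% of all genes were), and 1, Arrdc3, had an unadjusted p under 0.05, as did 14.3% of all genes. Within strains, 0 of 42 gene and strain pairs were called, against 0.0272% of all pairs, and 2 pairs had an unadjusted p under 0.05, as did 6.76% of all pairs, namely Arrdc3 in C57BL6/J and Txnrd1 in Balbc/J (0.095 ± 0.047, limma adjusted p = 0.744). The methods' t-test at its threshold of 0.01 listed Arrdc3 in 1 strain and the other 5 genes in none, and 0 after Benjamini-Hochberg adjustment. The share of all genes listed at that threshold is not given here, so the listing of Arrdc3 in 1 strain is not read as beyond background. The test that the diet difference varies with strain called 0 of 6 genes, against 0.0401% of all genes, and 0 had an unadjusted p under 0.05, as did 6.11% of all genes.

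**Figure D2:**
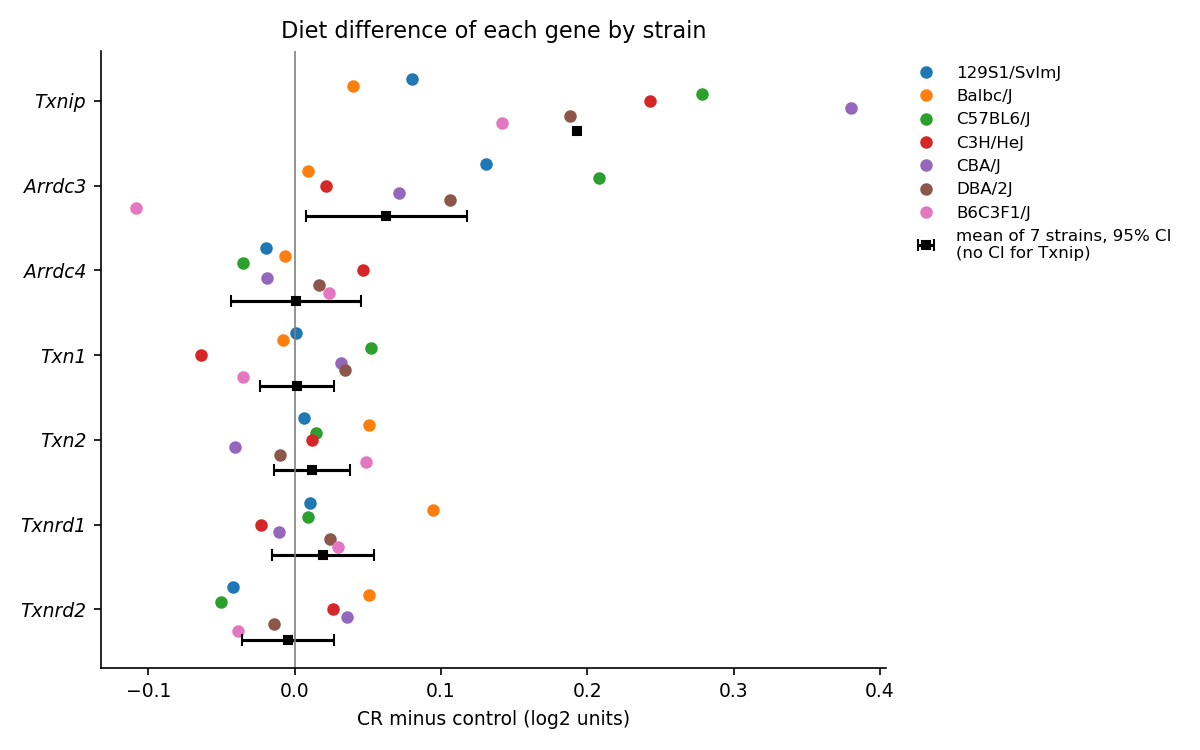
Difference between CR and control means (log2 units) for each of the 7 genes. Coloured points are the 7 strains, and black squares with bars give the average of the strains and its 95% confidence interval, which is not drawn for Txnip. Txnip is the gene whose 7 points all lie to the right of 0, and the intervals of Arrdc4, Txn1, Txn2, Txnrd1 and Txnrd2 include 0.

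No other gene listed for the pathway passed the test between the diets. Of 20 genes of the other thioredoxin, peroxiredoxin and glutaredoxin systems 18 were measured, and of these 0 were called by limma, where 2.34% of all genes were, with a median difference of -0.0070 beside 0.00054 over all genes. An unadjusted p under 0.05 was found for 1 of the 18 and for 14.3% of all genes. That gene was Glrx2, a mitochondrial glutaredoxin (0.040 ± 0.019, limma adjusted p = 0.309). The peroxidase genes Prdx1, Prdx2 and Prdx3, which thioredoxin keeps reduced, differed by 0.026, 0.0022 and 0.016. Glrx, Glrx5 and Gsr, the glutathione reductase, differed by -0.045, 0.024 and -0.023.

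Of 5 other arrestin genes, 0 were called by limma (2.34% of all genes) and 0 had an unadjusted p under 0.05 (14.3% of all genes), with a median difference of -0.015. Arrdc1, an alpha-arrestin of vesicle budding, differed by -0.038 (limma adjusted p = 0.402), Arrdc2 by 0.036, and the beta-arrestins Arrb1 and Arrb2 by -0.015 and -0.024. The 3 genes of the glucose-responsive factors differed by 0.011 for Mlx, -0.028 for Mlxip, which encodes MondoA, and 0.011 for Mlxipl, which encodes ChREBP.

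Among 16 regulators and partners of Txnip, those 3 included, 0 were called by limma, where 2.34% of all genes were, and the median difference was 0.010. An unadjusted p under 0.05 was found for 5 of the 16 and for 14.3% of all genes. Those 5 were the transcription factor Foxo3 (-0.071 ± 0.023, limma adjusted p = 0.0789), the ubiquitin ligase Itch, which marks Txnip for degradation (0.040, adjusted p = 0.210), the neuronal glucose transporter Slc2a3 (0.037, adjusted p = 0.237), and the ubiquitin ligases Nedd4l (0.050, adjusted p = 0.271) and Wwp2 (-0.037, adjusted p = 0.290). Slc2a1, the glucose transporter of the blood-brain barrier that Txnip restrains, differed by -0.0035.

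Most of the 7 genes differed between strains. Among control mice 6 of 7 differed between strains (limma moderated F, adjusted p below 0.05), where 65.4% of all genes did, and among CR mice 6 of 7 did, where 56.8% of all genes did. With most genes of the array differing between strains, these counts are not read as particular to the 7 genes. Txnrd2 was the exception in both diets, with strain means spanning 0.043 in control mice (adjusted p = 0.872) and 0.086 in CR mice (adjusted p = 0.201). Sequence differences between strains can alter the signal of a probe set, which was not tested.

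The strain means of Txnip spanned 0.52 in control mice (adjusted p = 7.10e-08) and 0.52 in CR mice (adjusted p = 1.09e-06), beside a median of 0.27 over all genes in control mice. Control means fell from 8.40 in Balbc/J and 8.38 in C57BL6/J through 8.16 in DBA/2J, 8.06 in 129S1/SvImJ, 8.05 in C3H/HeJ and 8.04 in B6C3F1/J to 7.87 in CBA/J. In that order only the step from C57BL6/J to DBA/2J exceeded the pooled SD of 0.17. CR means fell from 8.66 in C57BL6/J through 8.44 in Balbc/J, 8.34 in DBA/2J, 8.30 in C3H/HeJ, 8.25 in CBA/J and 8.19 in B6C3F1/J to 8.14 in 129S1/SvImJ, and only the step below C57BL6/J exceeded that SD. CBA/J, the lowest strain on the control diet, was thus above 2 other strains under CR. Under 15 alternatives the Txnip spans stayed called. The lowest spans were 0.35 in control mice (without CBA/J) and 0.30 in CR mice (without C57BL6/J). The highest limma adjusted p under any alternative was 4.75e-05 in control mice and 0.0398 in CR mice.

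Txnrd1 had the clearest strain pattern of the thioredoxin genes. In 129S1/SvImJ its control signals were 7.96, 8.14 and 8.25 and its CR signals 7.90, 8.18 and 8.27 (lowest, median, highest), and at the other end Balbc/J had 8.41, 8.57 and 8.64 and 8.52, 8.62 and 8.88. Every 129S1/SvImJ mouse, of either diet, lay below every Balbc/J mouse. The span of strain means was 0.42 in control mice (adjusted p = 5.10e-13) and 0.50 in CR mice (adjusted p = 2.73e-15). 129S1/SvImJ lay 0.23 below the next strain in both diets, DBA/2J among controls and CBA/J among CR mice, more than the pooled SD of 0.091. Without 129S1/SvImJ the spans were 0.18 and 0.27 and both were still called.

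Txn1 was lowest in C57BL6/J and highest in CBA/J in both diets. Its control signals were 12.14, 12.36 and 12.40 in C57BL6/J and 12.41, 12.55 and 12.63 in CBA/J (lowest, median, highest), and all 8 CBA/J controls lay above the highest C57BL6/J control. The spans were 0.22 in control mice (adjusted p = 2.96e-07) and 0.20 in CR mice (adjusted p = 1.77e-07). DBA/2J lay next to CBA/J in both diets, within the pooled SD of 0.064.

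Txn2 was highest in Balbc/J and lowest in 129S1/SvImJ in both diets. Control signals were 10.30, 10.38 and 10.50 in Balbc/J and 10.09, 10.22 and 10.28 in 129S1/SvImJ (lowest, median, highest), with no overlap. CR signals were 10.39, 10.44 and 10.53 and 10.15, 10.21 and 10.31, again with no overlap. The spans were 0.19 (adjusted p = 0.000254) and 0.23 (adjusted p = 6.52e-07). After quantile normalization the span in control mice was 0.096 and no longer called (adjusted p = 0.0725).

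The strain calls of the arrestin-domain paralogs changed when single strains were left out. Arrdc3 spanned 0.25 in control mice (adjusted p = 0.0275) and 0.41 in CR mice (adjusted p = 2.52e-05), with C57BL6/J highest in both diets. In control mice the span was 0.21 without C57BL6/J, 0.18 without CBA/J and 0.21 after quantile normalization, and was then not called (adjusted p = 0.154, 0.148 and 0.0772). In CR mice the span without C57BL6/J was 0.17 and not called (adjusted p = 0.188). Arrdc4 spanned 0.23 in control mice (adjusted p = 0.00798) and 0.20 in CR mice (adjusted p = 0.0163), with Balbc/J highest and B6C3F1/J lowest in both diets. Without B6C3F1/J the spans were 0.14 and 0.15, and neither was called (adjusted p = 0.223 and 0.148).

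**Figure D3:**
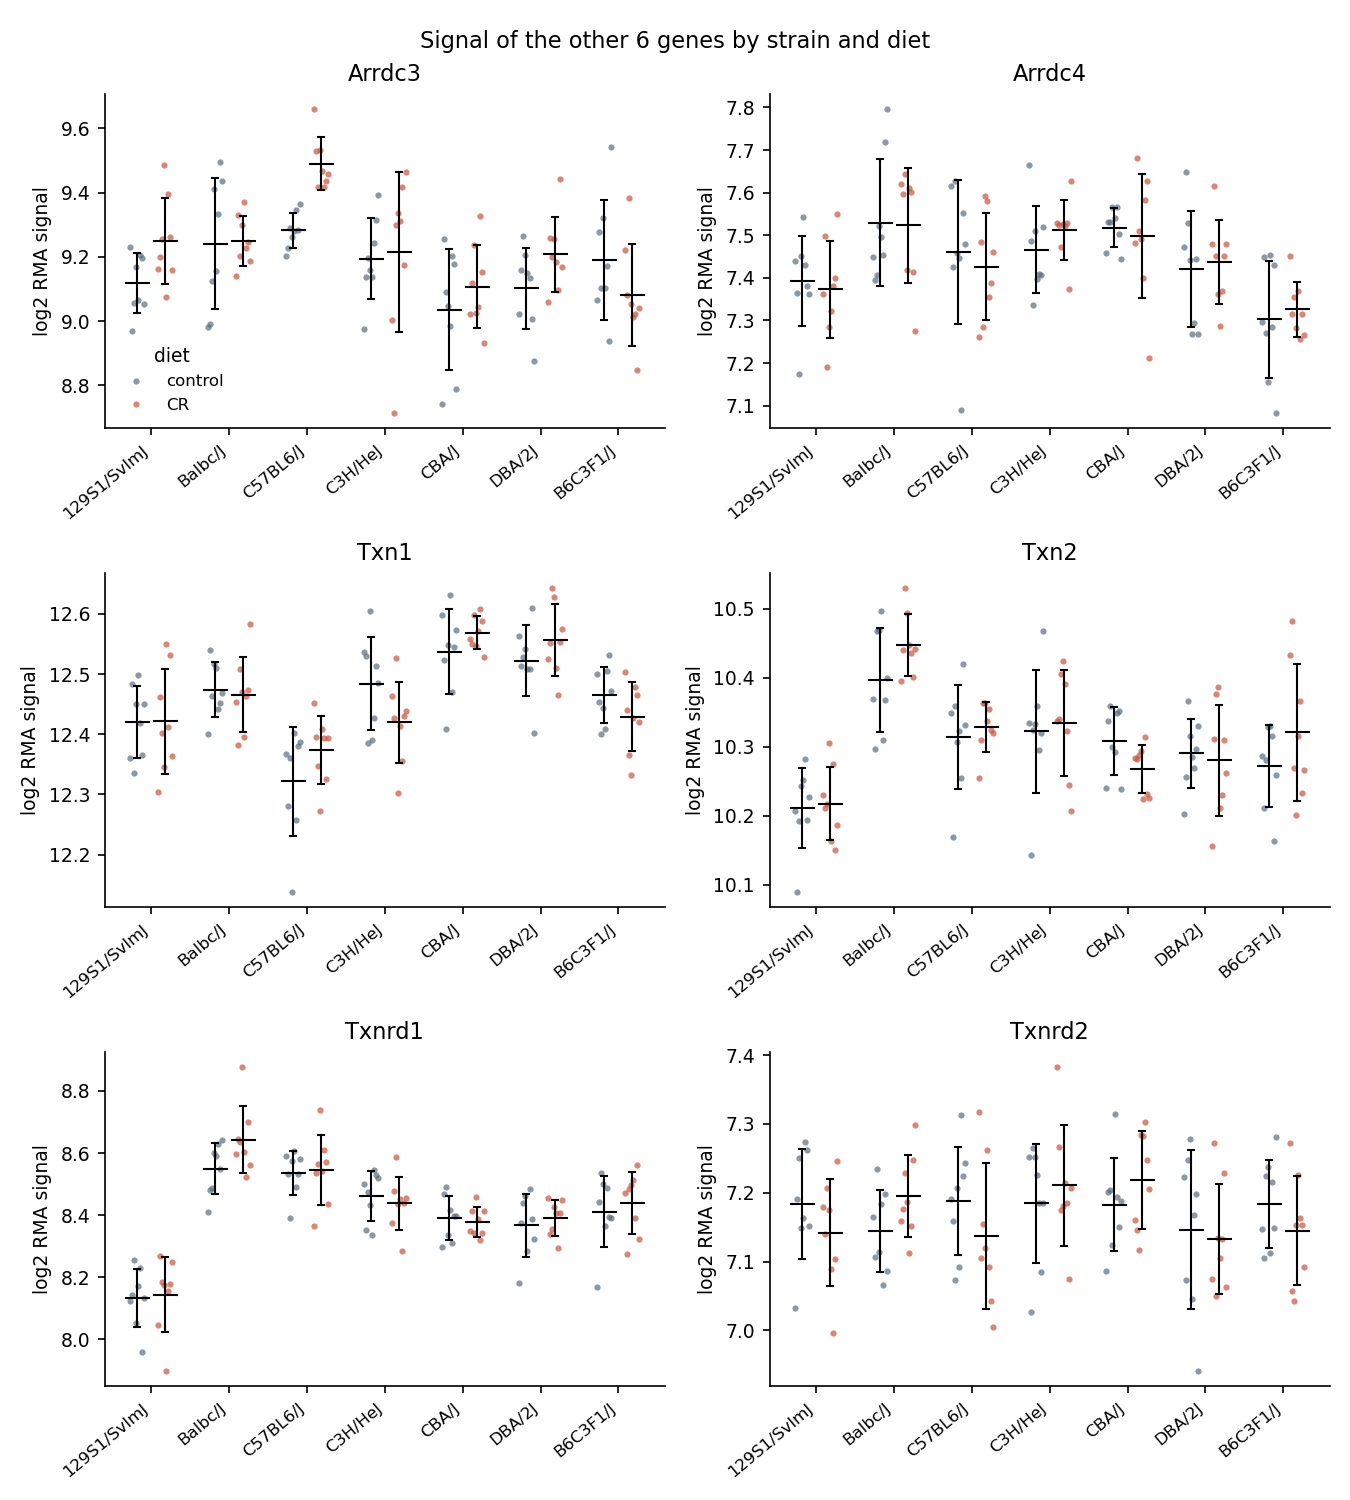
Signals (log2) of Arrdc3, Arrdc4, Txn1, Txn2, Txnrd1 and Txnrd2 on each array by strain and diet, with group means and SD (n = 8 mice per group). Each panel has its own axis. Txnrd1 is low in 129S1/SvImJ in both diets, Arrdc4 is lowest in B6C3F1/J, and the diets overlap in every panel and strain apart from Arrdc3 in C57BL6/J.

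The hybrid was set against the mean of its parental strains in control mice. Arrdc4 was lower in B6C3F1/J, at 7.30 against 7.46, a difference of -0.16 ± 0.052 (limma adjusted p = 0.0209), and it was the 1 gene of 7 called, where 16.2% of all genes were called and 9.77% were lower in the hybrid. Control signals of Arrdc4 were 7.08, 7.29 and 7.45 in the hybrid (lowest, median, highest), 7.09, 7.47 and 7.63 in C57BL6/J and 7.34, 7.45 and 7.66 in C3H/HeJ, so that the median of the hybrid lay below the lowest C3H/HeJ mouse while the ranges overlapped. The lowest mouse of the hybrid and that of C57BL6/J were the arrays with the highest cerebellar markers, and without them the difference was also -0.16 (adjusted p = 0.0204). Among CR mice the hybrid was at 7.33 and the parental mean at 7.47, a difference of -0.14. In the same mice the differences were -0.29 for Txnip and -0.27 for Arrdc3, and between -0.052 and 0.032 for the other 4 genes, and none of them was tested.

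Txnip was also lower in the hybrid than the parental mean, by -0.17 ± 0.075, without being called (limma adjusted p = 0.0956). The other 5 genes were not called either, with differences of -0.048 for Arrdc3, 0.062 for Txn1 (adjusted p = 0.140), -0.046 for Txn2, -0.088 for Txnrd1 (adjusted p = 0.121) and -0.0022 for Txnrd2.

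Once the mean of each strain and diet group was taken away, Txnip and Arrdc3 varied together from mouse to mouse. The correlation of these deviations over 112 arrays was 0.53, and it was 0.54 among 56 control arrays, 0.52 among 56 CR arrays and 0.55 without the 4 arrays that stood apart. The points share dissection, RNA quality and hybridisation, and the value is a description. For the other 20 pairs of the 7 genes the correlation over 112 arrays lay between -0.17 and 0.27, and for Txnip with Arrdc4 it was 0.041.

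The genes whose deviations were most like those of Txnip, of 19938, were Sgk1, a kinase induced by glucocorticoids (r = 0.57), Anxa2, a membrane-binding annexin (0.56), Pdlim5 (0.54), Arrdc3 (0.53), Nfkbia, the inhibitor of NF-kappa-B (0.52) and Acadm, an enzyme of fatty acid oxidation (0.51). The nearest to Arrdc3 were Anln (0.73), Gltp (0.72) and Gjc3, a gap junction gene of myelinating glia (0.70). For Arrdc4 they were Cbr3, Chst11 and Arel1, at 0.67, 0.65 and 0.65, or 0.58, 0.62 and 0.58 without the 4 arrays. The nearest genes to Txn1 were Psmb4, a proteasome subunit (0.53), Rab7 (0.52) and Serinc3 (0.51), and to Txn2 were Cope (0.64), Map11 (0.62) and the mitochondrial phosphatase Ptpmt1 (0.61). For the reductases they were Gnai3 (0.59), Rap1b (0.58) and Uchl5 (0.57) with Txnrd1, and Tsen54 (0.52), the muscle-type phosphofructokinase Pfkm (0.48) and Retreg3 (0.47) with Txnrd2.

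Cell type markers gave a like picture. Txnip deviations went with the mean of 6 astrocyte markers (r = 0.48 over 112 arrays) more than with the mean of 5 oligodendrocyte markers (0.18), and Arrdc3 deviations with the oligodendrocyte markers (0.63) more than with the astrocyte markers (0.37). Arrdc4 deviations went with 6 microglial markers (0.55, or 0.45 without the 4 arrays). Between the diets these marker means hardly differed, at 10.1 and 10.1 for astrocytes and 8.18 and 8.18 for microglia in control and CR mice. Their part in the diet values of Txnip and Arrdc3 was not tested, and the covariate values given above are a description.

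**Figure D4:**
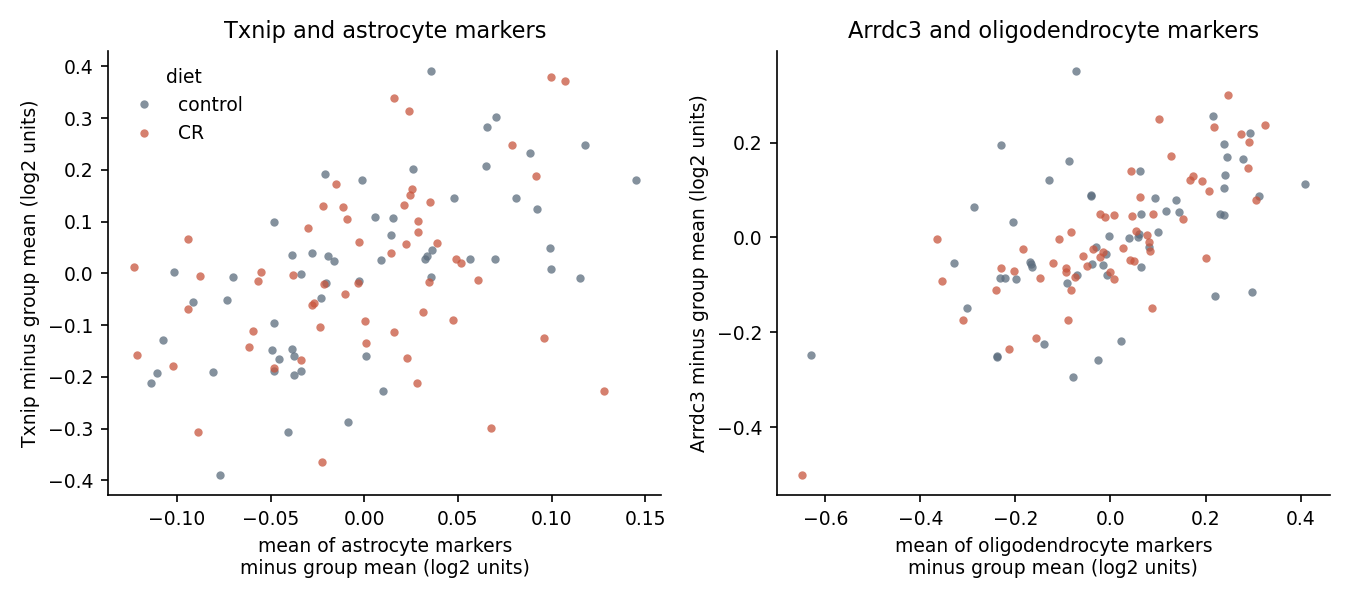
Deviation of Txnip from its group mean against that of the mean of 6 astrocyte markers, and of Arrdc3 against the mean of 5 oligodendrocyte markers, on 112 arrays (log2 units). Each point is a mouse, and points of both diets overlap in each panel (r = 0.48 and 0.63). The lowest Arrdc3 point was at -0.50 in CR mice and at -0.29 in control mice.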

How the data were processed

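Per the labels, total RNA from cerebral cortex of 112 mice was hybridised to 1-colour Affymetrix mouse gene arrays. The authors deposited log2 signals of 35556 probe sets, made according to the submitters' processing notes with Affymetrix Expression Console and RMA, which corrects background, quantile-normalizes and summarises probes. Whether all arrays were normalized in 1 run, and the genome build, are not stated in any source read. The platform annotation gave 21789 probe sets 1 gene symbol, 1621 several and 12146 none. The probe set of highest mean was kept per gene (19938 genes, no low-signal filter). The 7 genes and all lists were chosen with earlier results of these data known. The genes named from each list are those called, then up to 4 with the smallest p, and Prdx1, Prdx2, Prdx3, Mlx, Mlxip, Mlxipl, Slc2a1 and Wwp2 were added for their roles after their values were seen. Nearest genes are those of highest correlation of deviations, 6 for Txnip and 3 for each other gene.

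Group means of 14 groups were fitted with limma 3.58.1 in R 4.3.3 (98 residual degrees of freedom), with Benjamini-Hochberg adjustment over all genes at a threshold of 0.05. Array medians ran from 7.14 to 7.26. The number of arrays limits the precision. Tested on simulated data for the comparison across strains over 19938 genes, the procedure called 49 of 100 genes changed by 0.1 and 95 of 100 changed by 0.2 (log2), with 8 false calls. The changed genes were drawn at random and the simulated noise was independent between genes, so these counts do not describe the 7 genes. Their pooled SD ran from 0.064 (Txn1) to 0.17 (Txnip), beside a median of 0.14 over all genes. Alternatives were median centring, quantile normalization, a filter on dim genes, robust and weighted fits, an array quality covariate, the replicate number as a block, the methods' t-test, and leaving out strains or arrays. RefSeq promoter windows matched 7 of 7 genes.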

Additional observations from a re-analysis of the deposited data

Results flagged for a closer look

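Of 98 sets of 8 arrays (7 genes in 14 groups), 4 held an array whose gap to its nearest neighbour was large against the whole range of the group. Chance gives such a gap in about 1 in 20 groups. In CBA/J CR mice, Txnip was highest in replicate 6, at 8.57, with the next mouse at 8.29. That array also had raised cerebellar markers. In C57BL6/J control mice, Arrdc4 was lowest in replicate 6, at 7.09, with the next at 7.42, on the array with cerebellar markers that differed from those of the other mice of its group by 4.27 and microglial markers that differed by -1.02. In 129S1/SvImJ control mice, Txn2 was lowest in replicate 2, at 10.09. In B6C3F1/J control mice, Txnrd1 was lowest in replicate 1, at 8.17. What set these arrays apart was not tested.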

How the results depend on the processing

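The Txnip difference across strains was 0.16 (without CBA/J) to 0.22 (without Balbc/J) under 19 alternatives. These refits used the arrays on which the gene was chosen, so their shared sign is no support for the difference. No tested gene was called between the diets, across strains or within 1, under any alternative. With the replicate number as a block, 0 of 6 genes were called and Txnip differed by 0.19. Same-numbered control and CR mice correlated at -0.48 to 0.37 (median 0.11, over 0.1 in 31 of 56 pairs, best with the own number in 12). These values do not settle whether the replicate numbers pair the mice, which was not tested. The hybrid comparison called 2 genes after quantile normalization (Txn1 added, 0.084, adjusted p = 0.0408), 2 with array weights (Txnip added, -0.20, adjusted p = 0.0443) and 0 among genes above the median gene, where Arrdc4 and Txnrd2 were not tested. In the main fit the hybrid comparison called 16.2% of all genes. The shares of all genes called with the replicate block, or by the hybrid comparison under these alternatives, are not given here. Those counts are therefore not read against a background. All genes called across strains numbered 467 and ranged from 175 without CBA/J to 1193 with array weights.

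Differences near 0 changed sign as follows. Across strains, Arrdc4 was -0.0083 with array weights, -0.010 with the quality covariate, -0.011 and -0.016 without 2 and 4 cerebellum-rich arrays, and -0.0068, -0.0018 and -0.0029 without C3H/HeJ, DBA/2J and B6C3F1/J. Txn1 was -0.0050 after quantile normalization, -0.00016 with array weights, -0.0028 without 4 arrays, and -0.0068, -0.0034 and -0.0039 without C57BL6/J, CBA/J and DBA/2J. Txnrd2 was 0.0015, 0.0029 and 0.0010 without 129S1/SvImJ, C57BL6/J and B6C3F1/J. Within 129S1/SvImJ, Txn1 was -0.0023 after median centring, -0.012 after quantile normalization, -0.0093 with array weights and -0.00047 with the quality covariate, and after quantile normalization Txn2 was -0.0052 and Txnrd1 -0.0014. Within Balbc/J, array weights gave Txnip -0.056 and Arrdc3 -0.044, and Arrdc4 was 7.3e-05, 0.0028 and 0.0020 after median centring, quantile normalization and weights. Within CBA/J, Txnrd1 was 0.00011 and 0.0045 after median centring and quantile normalization. Within DBA/2J, Arrdc4 was -0.013 with array weights and -0.0049 without 4 arrays. Within B6C3F1/J, Arrdc4 was -0.0081 without 2 or 4 arrays and Txnrd1 -0.013 with array weights. The hybrid difference of Txnrd2 was 0.00054, 0.012 and 8.2e-05 after median centring, weights and the quality covariate. The cause was not tested.

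Each gene had 1 probe set, so no other probe set was tried. The strain tests were not run with the replicate block. In the simulation 49 of 100 differences of 0.1 across strains were called.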
